A study of Mus musculus with 18 samples.

Results

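The genes described here are 41 genes of DNA replication and of the passage from G1 into S phase, followed by RNA-seq in RAW264.7 macrophages and in mouse liver. They were chosen by name, as every row of the 2 deposited FPKM tables whose gene symbol is 1 of the 41, out of 21441 genes per table, and all 41 were found in both tables. Values in macrophages are from RAW264.7, a mouse macrophage-like cell line, as 3 Control, 3 LPS and 3 LPS+MIC-1 libraries, with MIC-1 (moringa isothiocyanate-1, an isothiocyanate from moringa seeds) at 10 µM. LPS (lipopolysaccharide), an endotoxin made by Gram-negative bacteria, was given to the macrophages in both treated groups. The sample labels repeat for these cells the doses of the mouse experiment, 10 mg/kg LPS and 80 mg/kg MIC-1, so the LPS concentration of the cultures is not known from them. Liver came from wild type C57BL/6 male mice, as 3 Control libraries (vehicle, with saline injected), 3 LPS libraries (10 mg/kg, injected intraperitoneally) and 3 LPS+MIC-1 libraries (80 mg/kg MIC-1 by gavage in a vehicle with DMSO over 3 days, then LPS), all collected 16 hours after the injection. The liver libraries came from 9 mice, 3 per treatment. The age of the mice is not given in the sources used here, and whether mice given LPS alone also had the gavage vehicle is not clear from them.

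Before a cell copies its DNA, origins are licensed: the origin recognition complex, Cdc6 and Cdt1 load the ring of Mcm2 to Mcm7 onto DNA. In S phase Cdc45 and the GINS complex turn this ring into a moving helicase, primase and polymerase alpha start each strand, the clamp loader (replication factor C) places the clamp Pcna, and polymerases delta and epsilon extend the strands. Many of these genes are targets of E2F transcription factors, which are held back by RB proteins until cyclin E and cyclin D kinases release them, so their RNAs tend to be high in dividing cells and low in resting cells. RAW264.7 cells divide continuously in culture, whereas most hepatocytes of an adult liver are at rest.

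The genes fall into 9 roles: licensing and MCM helicase (10 genes), GINS (3), clamp and clamp loader (5), primase and polymerases (8), Okazaki fragment maturation (2), nucleotide supply (4), G1/S regulators (4), chromatin assembly and maintenance (3) and single-strand binding (2). Of the 41, 40 had a mean FPKM above 1 over the 9 macrophage libraries and were tested there, among 9905 genes. Ccne2, a cyclin E gene, was left out at 1.07, 0.519 and 1.22 FPKM in the Control libraries. In liver 27 of the 41 passed the same filter. The other 14 (Cdc6, Mcm4, Mcm5, Gins2, Gins3, Pola1, Pole, Pole2, Fen1, Ccne1, Ccne2, E2f1, E2f2 and Chaf1a) were not tested there, and Mcm5 is listed at 0 in all 9 liver libraries. The authors' mean normalized count shows how unequal the depth behind these genes is. In macrophages it ran from 32.3 reads for Ccne2 to 6676 for Pcna, and in liver only Mcm10 (612), Tyms (1048), Pola2 (311), Rfc2 (275), Pcna (202), Rpa1 (169) and Tk1 (107) had more than 100.

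LPS library 2 of the macrophages (numbered by its place among the LPS columns of the table, which carry no replicate number) stood apart from the other LPS libraries. Over the genes tested, its log2 values correlated at r = 0.990 with Control library 2 and at 0.862 with LPS library 1, whereas LPS libraries 1 and 3 correlated at 0.986. The study used 2 of the 3 LPS libraries without naming them in its text. Counts and medians in macrophages are therefore given over all 9 libraries and without LPS library 2, and a Log2FC of a single gene with no other mention is without it. Library 2 also stood apart in the other groups, as the lowest of the 3 Control libraries for 35 of the 40 tested genes, the highest of the 3 LPS libraries for 39 and the highest of the 3 LPS+MIC-1 libraries for 38. Its limma array weight was the lowest of each group (0.42, 0.02 and 0.26 in the same order). The cause of these positions was not tested. FPKM summed to 1137530 and 1132900 in LPS libraries 1 and 3, against 557136 to 652486 in the other 7 macrophage libraries. The labels' cell type was checked on marker genes: in macrophages the 6 listed macrophage genes summed to between 11021 and 13511 FPKM, and in liver the 6 listed hepatocyte genes summed to between 39677 and 100491 FPKM.

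The promoters of 34 of the 41 genes were found in RefSeq's promoter windows (GRCm38.p6), which run from 250 bases before to 50 bases after the start. Each was matched once and without mismatch in the mm9 sequence of its gene and its flanks, the only part of the genome searched. An E2F motif (TTCCCGC or TTGGCGC, on either strand) was present for 20 of the 34 genes (58.8%), against 7.79% of all 27025 genes with a window. The CCAAT box bound by NF-Y was present for 20 of 34 (58.8%, against 41.1% of all), and the cell cycle element CHR (TTTGAA) for 5 of 34 (14.7%, against 20.2%). The E2F and CCAAT motifs can share a base where they meet, and such a base was counted for both. The 120 bases before the start are shown for 5 genes. Mcm6 and Rrm1 hold both motifs and fell with LPS without LPS library 2, Mcm10 holds CCAAT boxes alone and had the lowest Log2FC, Gins3 was the only gene of the 40 higher with LPS, and Pola2 was the member closest to control with LPS+MIC-1. The stretches lie in mm9 at chr1:130256283-130256402 (minus strand, Mcm6), chr7:109590089-109590208 (plus strand, Rrm1), chr2:4933838-4933957 (minus strand, Mcm10), chr8:98157339-98157458 (plus strand, Gins3) and chr19:5964207-5964326 (minus strand, Pola2), and are written 5′ to 3′ on the strand of the gene with the motif matches in capitals.
Mcm6: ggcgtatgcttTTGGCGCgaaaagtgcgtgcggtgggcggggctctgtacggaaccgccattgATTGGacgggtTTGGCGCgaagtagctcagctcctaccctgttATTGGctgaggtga
Rrm1: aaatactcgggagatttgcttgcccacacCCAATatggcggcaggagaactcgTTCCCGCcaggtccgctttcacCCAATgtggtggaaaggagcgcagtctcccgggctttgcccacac
Mcm10: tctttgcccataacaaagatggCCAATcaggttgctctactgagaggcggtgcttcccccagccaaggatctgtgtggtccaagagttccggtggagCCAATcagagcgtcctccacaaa
Gins3: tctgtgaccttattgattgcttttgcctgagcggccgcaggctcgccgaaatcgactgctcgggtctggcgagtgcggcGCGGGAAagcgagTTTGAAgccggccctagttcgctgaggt
Pola2: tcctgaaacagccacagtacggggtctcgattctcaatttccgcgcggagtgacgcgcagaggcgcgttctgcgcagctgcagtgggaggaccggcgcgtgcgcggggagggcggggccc
Mcm6 holds 2 E2F motifs and 2 CCAAT boxes (read as ATTGG on this strand) in these bases, and Rrm1 holds 1 E2F motif between 2 CCAAT boxes. Gins3, whose level moved against that of the other genes, holds an E2F motif (as GCGGGAA on this strand) and a CHR within 41 bases of the start, and 2 CCAAT boxes further upstream in its window that are not shown. Pola2 holds no match of the 3 motifs in its window, which says only that these letters are absent there. It is 1 of 6 members with no match, the others being Rfc5, Tyms, Tk1, Ccne1 and E2f1. All 6 fell with LPS without LPS library 2. The 5 stretches shown were picked with results and motifs known, and a link between motifs and levels was not tested.

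In macrophages the replication genes were far lower in LPS libraries 1 and 3 than in Control, and at the level of Control in LPS library 2. The median over the 40 genes of the log2 difference from the Control mean was -2.26, -0.16 and -2.20 in LPS libraries 1, 2 and 3, against 0.05, -0.11 and 0.05 in the Control libraries. With all 9 libraries, 0 of the 40 genes passed the threshold of the study for these cells (limma adjusted p below 0.01 and absolute Log2FC above 1), as did 0% of all 9905 genes tested. At an unadjusted p below 0.05 there were 37 lower and 1 higher among the 40, against 25.6% lower and 24.1% higher of all genes. The median Log2FC in this fit was -1.53, against -0.03 for all genes tested. With limma array weights, 35 of the 40 were called lower and 1 higher, against 18.9% and 17.3% of all genes. Without LPS library 2, 36 of the 40 genes fell and 1, Gins3, rose, against 17.9% of all genes called lower and 16.3% called higher, and the median Log2FC was -2.23. Cdt1, Pcna and Pold2 were the 3 that did not pass. The groups did not overlap for 25 lower genes and 1 higher gene with all libraries (17.2% and 16.1% of all genes), and without LPS library 2 for 39 lower genes and Gins3 (43.4% and 42.2%). Leaving out any other single library gave 0 calls. In bulk RNA, of cultures or of liver, fewer cells of a type and less RNA per cell cannot be told apart.

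**Figure D1:**
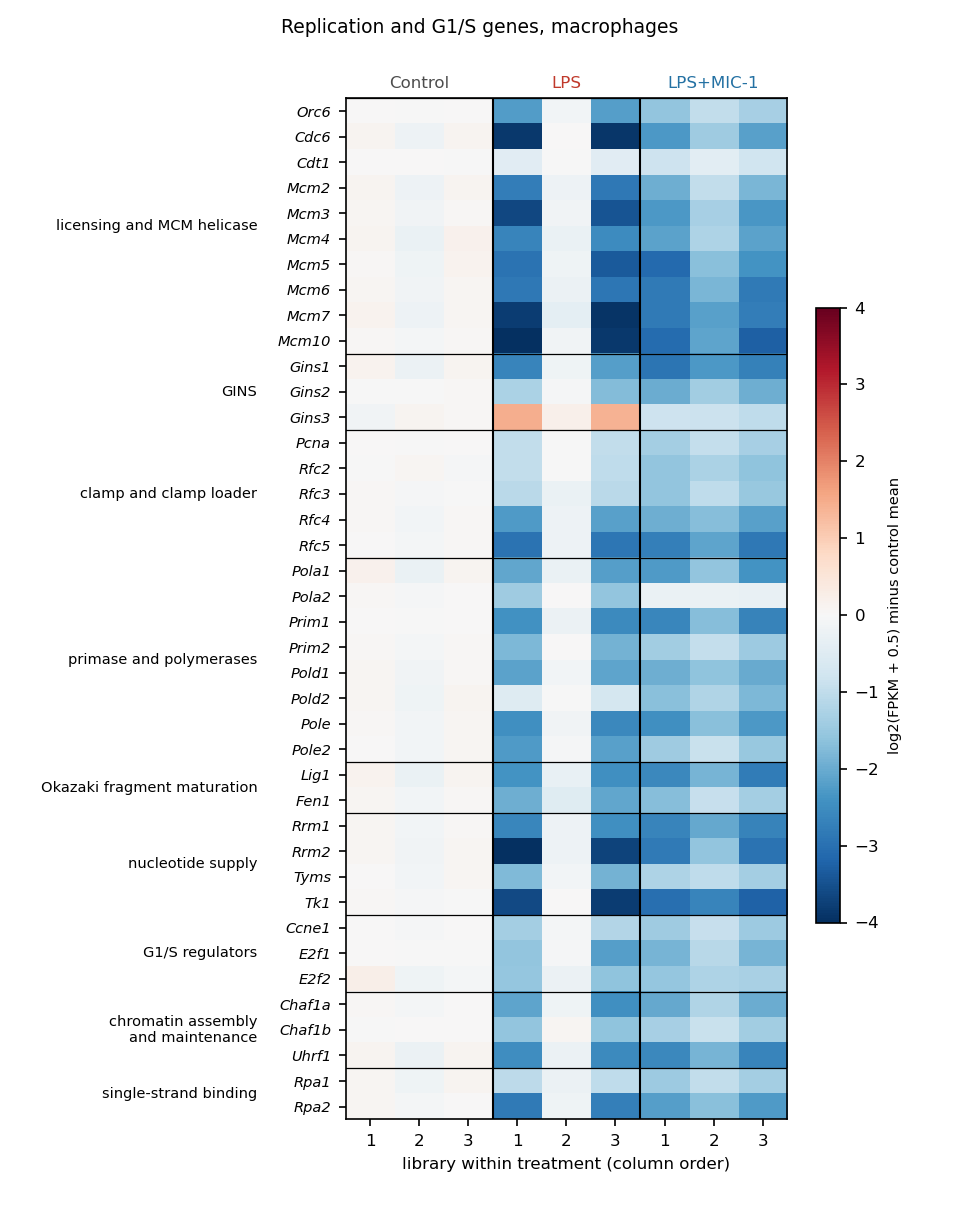
Log2(FPKM + 0.5) of the 40 tested replication and G1/S genes in each macrophage library, as the difference from the mean of the 3 Control libraries, with genes in rows by role and libraries in columns by treatment. LPS libraries 1 and 3 are blue in every row but Gins3, LPS library 2 is near white, and LPS+MIC-1 library 2 is paler than its neighbors.

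Mcm10, Cdc6 and Mcm7, of the licensing and helicase role, had the lowest Log2FC of the 40 without LPS library 2. Mcm10, which helps start the loaded helicase (chr2:4910760-4933837, mm9), was at 23.9, 21.9 and 23.9 FPKM in Control, 0.667, 20.9 and 1.15 in LPS and 2.30, 4.98 and 1.95 in LPS+MIC-1. LPS libraries 1 and 3 lay far below all others, and LPS library 2 lay just under Control. Its Log2FC of LPS against Control was -2.78 ± 0.97 (SE) over all libraries (limma adjusted p = 0.0777). Without LPS library 2 it was -4.09 ± 0.32 (limma adjusted p = 1.62e-05), a 17.1-fold decrease. Cdc6, the loader of the MCM ring, went from 10.8, 8.48 and 10.7 FPKM in Control to 0.226 and 0.197 in LPS libraries 1 and 3. The 6 subunits of the ring, Mcm2 to Mcm7, fell together, with Log2FC from -3.86 (Mcm7) to -2.58 (Mcm4) without LPS library 2, and Orc6 of the origin recognition complex fell by 2.22 on that scale. Cdt1, the other loader, had the highest mean FPKM of the role over the 9 libraries and was not called. It had 70.5, 71.2 and 68.8 FPKM in Control, 51.3, 69.4 and 51.1 in LPS and 39.5, 52.3 and 40.5 in LPS+MIC-1, with a Log2FC of -0.45 ± 0.12 without LPS library 2 and -0.31 with all 9. Cdt1 protein is known to be destroyed in S phase, and geminin holds back its activity, so its RNA does not give the amount of active protein.

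The GINS genes went in opposite directions with LPS. Gins1 was at 31.1, 24.2 and 30.7 FPKM in Control and 4.16, 25.2 and 5.79 in LPS, a Log2FC of -2.42 ± 0.21 without LPS library 2 and -1.67 with all 9. Gins2, the most abundant of the 3, was at 32.5, 32.8 and 34.1 and 13.6, 31.8 and 9.58 FPKM (-1.50 ± 0.20, and -1.02 with all 9). Both fell in that fit. Of Gins2, 2758 exonic bases lie opposite those of Gse1, and whether strand was used in counting is not given in the sources used here. Gins3 (chr8:98157459-98168959, mm9), which codes for the Psf3 subunit of the same complex, had 10.1, 12.1 and 11.4 FPKM in Control, 31.6, 12.9 and 29.9 in LPS and 6.11, 5.99 and 5.28 in LPS+MIC-1. LPS libraries 1 and 3 lay above every other library and all LPS+MIC-1 libraries below, with LPS library 2 just above Control. The Log2FC of LPS against Control was 1.01 ± 0.31 over all libraries (limma adjusted p = 0.0777) and 1.42 ± 0.10 without LPS library 2 (adjusted p = 9.24e-06). It stayed above 0 when FPKM were rescaled to the same sum per library and LPS library 2 was left out, at 0.45, no longer past the fold threshold. No other gene overlaps the exons of Gins3 in the GENCODE annotation of mm9.

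Of the clamp and its loader, Rfc4 and Rfc5 had lower Log2FC with LPS than Pcna, Rfc2 and Rfc3, a difference between genes that was not tested. Pcna, the sliding clamp and the most abundant gene of all 41, was at 452, 445 and 453 FPKM in Control, 227, 441 and 229 in LPS and 176, 230.2 and 179 in LPS+MIC-1. Its Log2FC of LPS against Control was -0.66 with all 9 and -0.98 ± 0.11 without LPS library 2 (limma adjusted p = 0.000114), just short of the fold threshold, while Rfc2 (-1.0) and Rfc3 (-1.08) were just past it. Rfc5 had a larger difference, from 56.5, 52.1 and 57.8 FPKM in Control to 6.76 and 7.07 in LPS libraries 1 and 3, with 47.8 in LPS library 2. Its Log2FC was -2.91 ± 0.20 without that library and -2.01 with all 9, and Rfc4 followed at -2.23. Part of the exons of Rfc4 and Rfc5 lies opposite those of Eif4a2 and Wsb2 in mm9 (194 and 499 bases).

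Among primase and polymerases, 7 of 8 genes fell without LPS library 2. Prim1, the catalytic primase subunit, was at 33.0, 32.2 and 32.8 FPKM in Control, 5.73, 27.8 and 5.23 in LPS and 4.91, 9.59 and 4.73 in LPS+MIC-1, with a Log2FC of LPS against Control of -1.73 with all 9 and -2.47 ± 0.26 without LPS library 2 (limma adjusted p = 6.89e-05). Pola1, Pold1, Pole and Pole2 had Log2FC from -2.51 to -2.12 in that fit, and Prim2 was at -1.83. Pold2, the second subunit of polymerase delta, was the exception. Its FPKM were 47.8, 40.4 and 49.1 in Control, 31.9, 45.2 and 27.7 in LPS and 14.1, 19.5 and 12.8 in LPS+MIC-1, so that the LPS+MIC-1 libraries lay below all of the LPS libraries. The Log2FC of Pold2 with LPS was -0.41 with all 9 and -0.61 ± 0.18 without LPS library 2 (adjusted p = 0.0138).

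The enzymes that finish Okazaki fragments and supply nucleotides fell with LPS in the fit without LPS library 2, 6 of 6. Lig1, the DNA ligase of the lagging strand, was at 47.3, 35.8 and 46.5 FPKM in Control, 7.76, 34.9 and 7.47 in LPS and 6.73, 11.5 and 5.80 in LPS+MIC-1 (Log2FC with LPS -2.42 ± 0.26, and -1.71 with all 9), and the flap nuclease gene Fen1 was at -2.01. Of the exons of Fen1, a stretch lies opposite a predicted gene, Gm10143 (1909 shared exonic bases). Rrm2, the S phase subunit of ribonucleotide reductase, was at 128, 112 and 129 FPKM in Control, 7.29, 107 and 8.97 in LPS and 16.97, 40.8 and 15.4 in LPS+MIC-1. LPS libraries 1 and 3 lay below all others, at a Log2FC of -2.63 with all 9 and -3.85 ± 0.37 without LPS library 2 (limma adjusted p = 4.37e-05). Thymidine kinase, Tk1, was at 105, 99.9 and 101 FPKM in Control, 7.87, 102 and 6.95 in LPS and 12.2, 16.0 and 10.3 in LPS+MIC-1. LPS library 2 thus held as much Tk1 as Control, and LPS libraries 1 and 3 together 7.25% of it. The large reductase subunit Rrm1 and thymidylate synthase, Tyms, had Log2FC of -2.54 and -1.83 with LPS.

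The tested regulators (Ccne1, E2f1 and E2f2) and the chromatin genes were also lower with LPS. Ccne1 (cyclin E1) was at 36.5, 34.8 and 35.9 FPKM in Control and 13.7, 33.8 and 15.5 in LPS, a Log2FC of -1.27 ± 0.15 without LPS library 2 and -0.87 with all 9. E2f1, the transcription factor, was at 22.9, 22.5 and 22.6 FPKM in Control and 7.24, 21.9 and 4.57 in LPS, a Log2FC of -1.89 ± 0.26 (-1.28 with all 9), and E2f2 was at -1.59. These 3 fell in that fit. Uhrf1, which brings the maintenance DNA methyltransferase to new DNA, went from 64.0, 50.2 and 63.7 FPKM in Control to 10.1, 49.7 and 9.74 in LPS (-2.51 ± 0.23, and -1.76 with all 9). The 2 subunits of the chromatin assembly factor, Chaf1a and Chaf1b, had Log2FC of -2.28 and -1.60. Of the single-strand binding proteins, which also act in repair, Rpa1 was at 56.7, 47.5 and 58.2 FPKM in Control and 25.7, 46.3 and 26.5 in LPS (-1.03 ± 0.15, and -0.76 with all 9). Rpa2 moved further, from 39.5, 35.8 and 38.1 to 4.89, 33.6 and 5.31 (-2.77 ± 0.17, and -1.90 with all 9).

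The comparison of LPS+MIC-1 with Control asks whether the treated cells returned to the replication RNA of untreated cells, and it rests on no LPS library. All 40 genes were lower in each of the 3 LPS+MIC-1 libraries than in each Control library, as were 34.9% of all genes tested. The median Log2FC of the 40 was -1.81, against -0.04 for all genes. In the fit of all 9 libraries 4 genes passed (Rfc2, Rfc3, Pold2 and Rpa1, all lower), against 2.32% of all genes called lower and 3.27% higher. In that fit LPS library 2 enters the shared estimate of the spread. Without it 37 of the 40 fell and 0 rose (8.2% and 7.55% of all genes), and 37 also fell with the 6 libraries of these groups alone. With LPS library 2 kept, 0 were called without Control library 1 or 3 or LPS+MIC-1 library 1 or 3, and 1 without Control library 2 or LPS+MIC-1 library 2. The 3 not called without LPS library 2 were Cdt1 (-0.68 ± 0.10), Gins3 (-0.89 ± 0.09) and Pola2 (-0.29 ± 0.06), each short of the fold threshold. Tk1 had the lowest Log2FC, -2.97 ± 0.14 (limma adjusted p = 6.12e-06 without LPS library 2), and its LPS+MIC-1 mean was 12.6% of Control. LPS+MIC-1 library 2 was the highest of its group for 38 of the 40 genes. The medians of the log2 difference from Control were -1.97, -1.29 and -1.99 in LPS+MIC-1 libraries 1, 2 and 3.

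**Figure D2:**
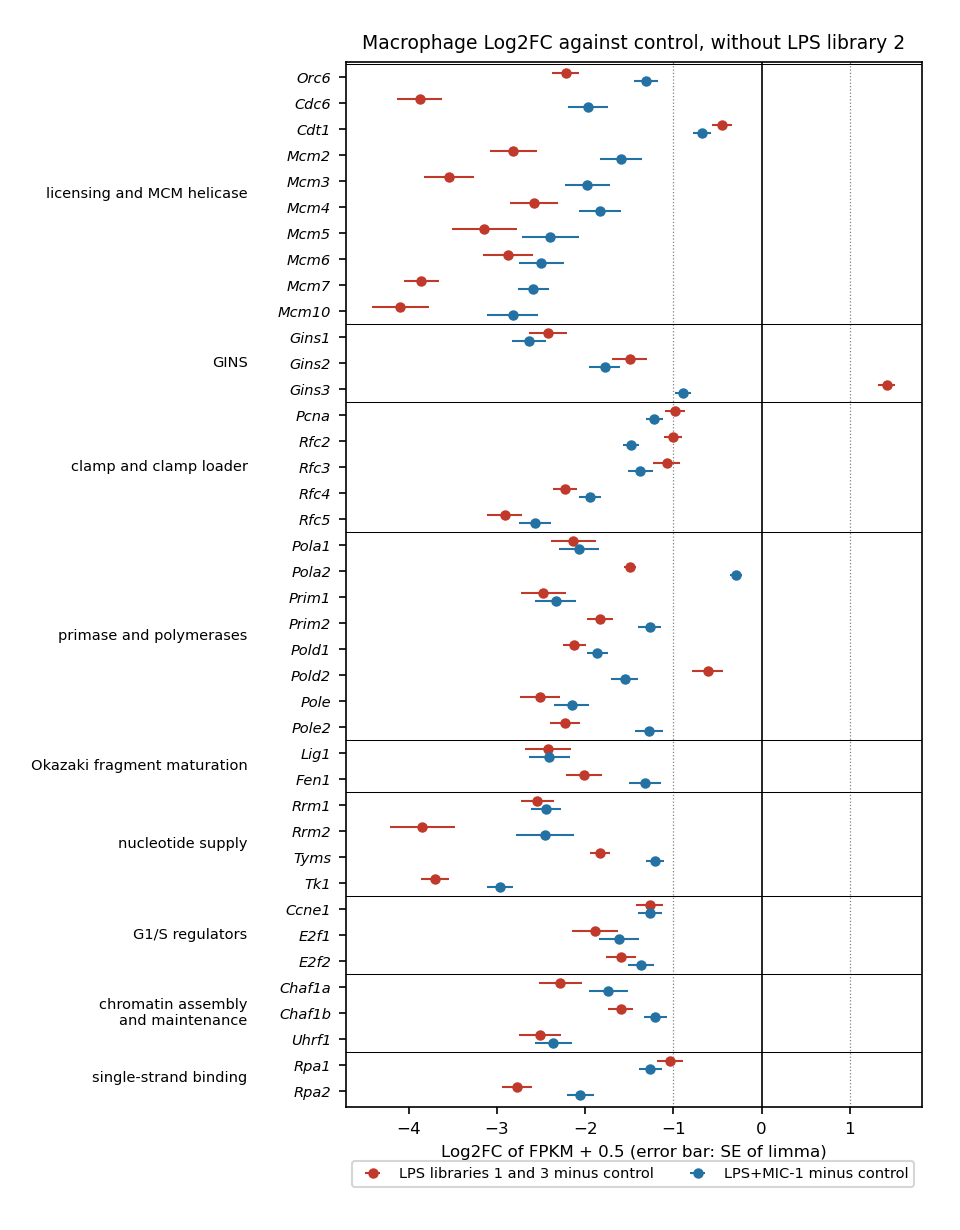
Log2FC of the 40 genes in macrophages without LPS library 2, LPS against Control in red and LPS+MIC-1 against Control in blue, with limma's standard error as bars and dotted lines at a Log2FC of -1 and 1. Both sets of points share the Control libraries. Gins3 is the only red point right of 0, and Pola2 is the blue point nearest to 0.

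LPS+MIC-1 against LPS asks what MIC-1 did to cells given LPS. Here the direction turned with LPS library 2 and with the scaling. Over all 9 libraries the median Log2FC was -0.38 (all genes: -0.01), with 30 of the 40 genes lower, and 1 gene, Gins3, passed the threshold (-1.90 ± 0.31, limma adjusted p = 0.0059), against 1.81% of all genes called lower and 2.06% higher. With all 9 libraries rescaled to the same FPKM sum, 17 genes were lower and 23 higher (median 0.07, all genes 0.44), and with limma array weights 15 were lower and 25 higher (median 0.15). The call of Gins3 did not pass in the 8 fits that left out 1 of the other libraries, with Log2FC from -1.94 to -1.68. Without LPS library 2 the median was 0.35 and 31 of the 40 were higher. In that fit 6 genes rose, Cdc6 (1.91 ± 0.26), Mcm2 (1.22 ± 0.26), Mcm3 (1.57 ± 0.28), Mcm7 (1.27 ± 0.20), Mcm10 (1.27 ± 0.32) and Pola2 (1.2 ± 0.07), and Gins3 fell (-2.31 ± 0.10). The 6 stood at 0.61, 0.35, 0.44, 0.12, -0.04 and 0.70 with all 9 libraries, in the same order. Without LPS library 2, that is 6 of 40 higher against 11.3% of all genes and 1 of 40 lower against 12%. The groups then did not overlap for 22 higher and 3 lower genes (40.3% and 39.9% of all genes). Of the 6, 5 are of the licensing and helicase role, the largest of the roles, and a difference between roles was not tested. For these 5 the sign turned in some of the fits that left out 1 library. Pola2 codes for the regulatory subunit of polymerase alpha (chr19:5940543-5964206, mm9). Cdc6 was at 1.61, 3.39 and 1.84 FPKM in LPS+MIC-1, above LPS libraries 1 and 3 and below LPS library 2 at 10.1. Mcm3 was at 89.1, 75.4 and 86.8 FPKM in Control, 6.25, 75.0 and 7.14 in LPS and 16.7, 33.3 and 16.3 in LPS+MIC-1. Mcm7 was at 89.1, 69.9 and 86.5, 5.39, 61.5 and 4.91 and 11.1, 17.5 and 11.5 FPKM in the same order. For these 3 the LPS+MIC-1 libraries lay between LPS libraries 1 and 3 below and Control above, and LPS+MIC-1 library 2 was the highest of its group. Pola2 was at 38.0, 35.7 and 37.7 FPKM in Control, 13.7, 37.4 and 12.1 in LPS and 30.6, 30.5 and 29.8 in LPS+MIC-1. The 3 LPS+MIC-1 libraries lay within 1 FPKM of each other, above LPS libraries 1 and 3 and below each Control library. Rescaled to the same FPKM sum without LPS library 2, 38 of the 40 genes were higher with MIC-1, and 22 were called higher and 1 lower, against 36.2% and 2.72% of all genes. That rescaling moved the median Log2FC of all genes to 0.74, so relative to all genes the median of the 40 was 0.34 as deposited and 0.31 rescaled.

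**Figure D3:**
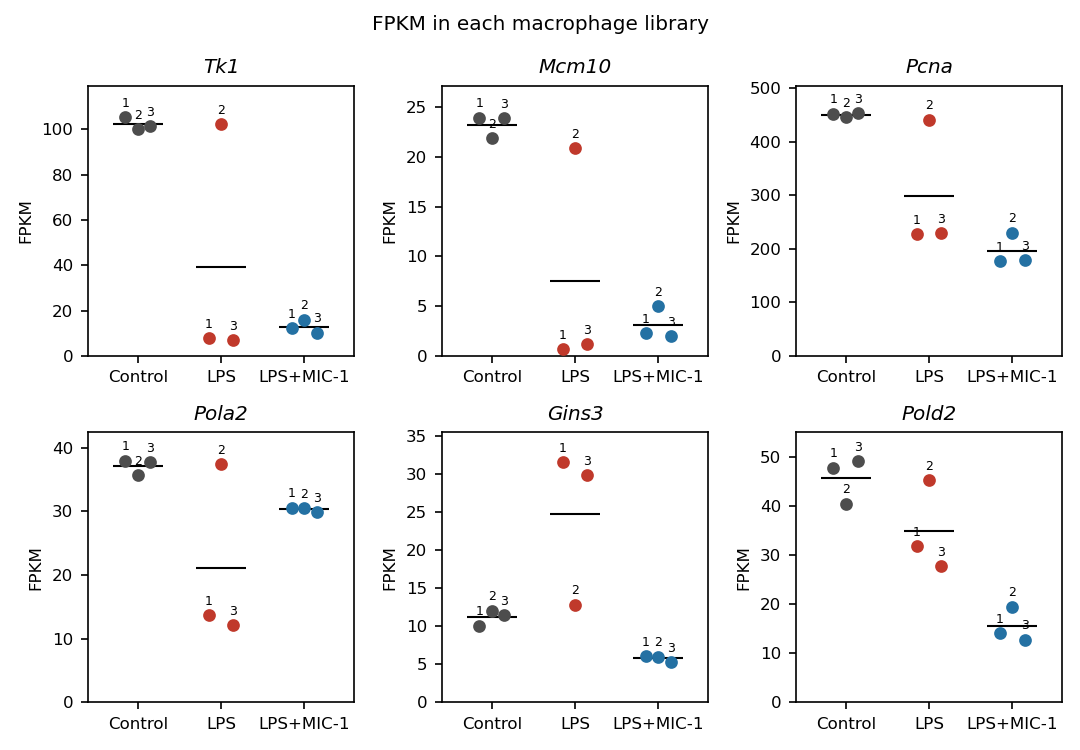
FPKM of Tk1, Mcm10, Pcna, Pola2, Gins3 and Pold2 in each macrophage library, with 1 point per library, its number within the treatment beside it and a line at the mean of the 3 libraries. In each panel LPS library 2 sits at the level of Control; Pola2 with LPS+MIC-1 is close to Control, Gins3 with LPS alone is above it, and Pold2 is lowest with LPS+MIC-1.

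Genes around these 41 were followed in 8 further lists, chosen by function. Of 66 other tested genes of origins, forks, nucleotide supply, G1 kinases, the E2F and RB families and replication-coupled chromatin, 34 fell and 4 rose with LPS without LPS library 2 (0 of 66 with all 9). Of all genes tested, 17.9% fell and 16.3% rose without LPS library 2, and 0% with all 9. The share of the 66 that rose was below that of all genes. By list, 7 of 13 origin and helicase factors, 9 of 17 fork, clamp and polymerase factors, 6 of 9 genes of nucleotide supply, 3 of 7 G1 cyclins and kinases, 5 of 10 of the E2F, DP and RB families, 4 of 6 chromatin factors and 0 of 4 CDK inhibitors fell. Among the lowest with LPS were Dscc1 (-3.16), a subunit of an alternative clamp loader, E2f8 (-3.11), and Dck (-2.98), the kinase of deoxycytidine salvage. Cdc45, the partner of GINS in the helicase, was at -2.63. The 4 that rose were Pold4 (1.83), the smallest subunit of polymerase delta, Rb1 (1.29), and the CDK inhibitors Cdkn2c (2.48) and Cdkn1a (1.8). Cdkn1a (p21) was at 193, 240.0 and 187 FPKM in Control, 748, 258 and 690.0 in LPS and 256, 204 and 253 in LPS+MIC-1. Rb1, which restrains E2F, was at 5.63, 5.98 and 6.25 FPKM in Control, 15.1, 5.78 and 15.3 in LPS and 5.64, 4.45 and 5.21 in LPS+MIC-1. For both, LPS libraries 1 and 3 stood above all other libraries, and the LPS+MIC-1 libraries were near Control. With LPS+MIC-1 against Control, 31 of the 66 fell and 0 rose without LPS library 2, and 6 fell and 0 rose with all 9. Of all genes, 8.2% fell and 7.55% rose without LPS library 2, and 2.32% and 3.27% with all 9. Of 24 genes of mitosis, 23 fell with LPS (median -3.17) and 23 with LPS+MIC-1 against Control (median -3.0) without LPS library 2. With all 9 libraries 0 of the 24 passed with LPS (median -2.17) and 3 fell with LPS+MIC-1 against Control. For the counts of the 24, the shares of all genes are those given with the 66. Plk1, a kinase of mitotic entry, had the lowest Log2FC with LPS, -4.57.

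In liver the same genes did not move as a block. The median Log2FC of the 27 tested genes with LPS was 0.28, against 0.15 for all genes tested, and 12 were lower and 15 higher. At a limma adjusted p below 0.05 and an absolute Log2FC above 1, 4 fell (Mcm10, Pola2, Tyms and Tk1) and 1 rose (Rpa2). That is 14.8% of the 27 called lower against 11.2% of all 10147 genes, and 3.70% called higher against 13.4%. Groups did not overlap for 6 lower and 8 higher genes (20.8% and 24.2% of all genes). FPKM rescaled to the same sum moved the median of all genes with LPS to -0.18 and that of the 27 to -0.02. Liver LPS library 2 stood apart from the other LPS livers, with r = 0.886 to Control library 1 and 0.889 to LPS library 1. Its highest r was 0.947, to LPS+MIC-1 library 2. Without it, 6 of the 27 fell (15.6% of all genes) and 5 rose, Mcm3, Mcm6, Pcna, Chaf1b and Rpa2 (19% of all genes). The number called was 2 without Control library 2, LPS library 1 or LPS library 3, and 3 without Control library 3.

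**Figure D4:**
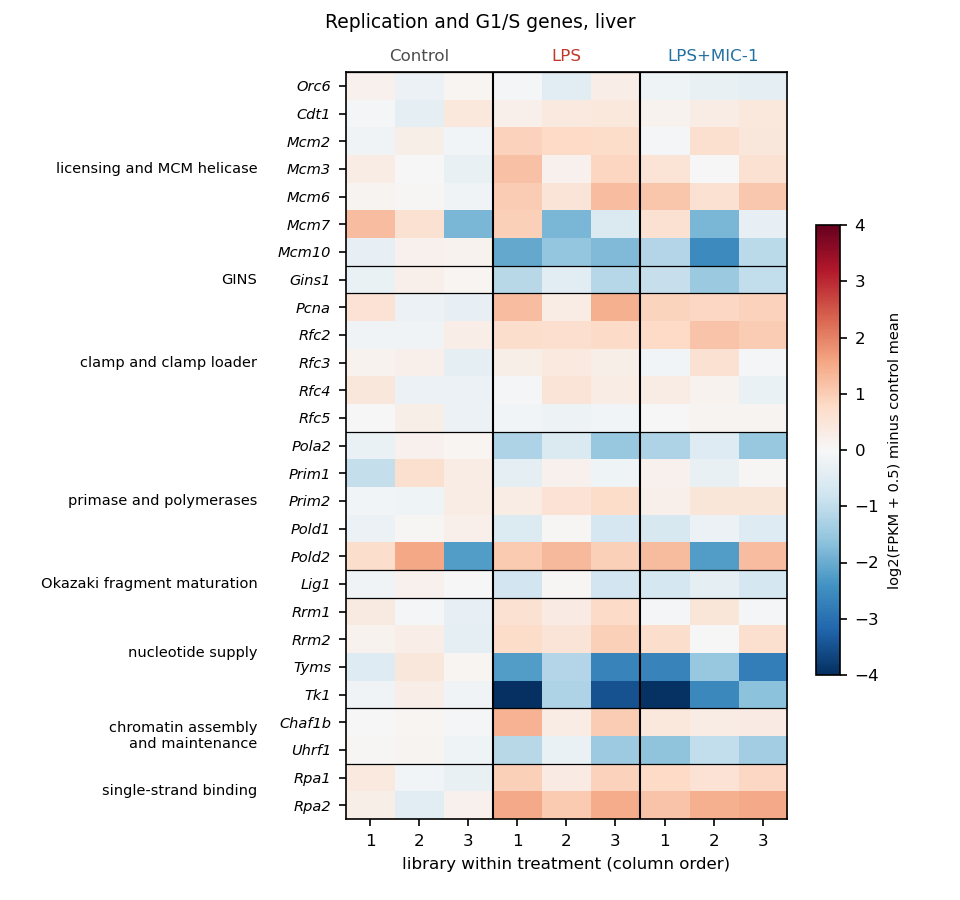
Log2(FPKM + 0.5) of the 27 tested replication and G1/S genes in each liver library, as the difference from the mean of the 3 Control libraries, with genes in rows by role and libraries in columns by treatment. Mcm10, Gins1, Pola2, Tyms, Tk1 and Uhrf1 are blue in both LPS groups, Mcm6, Rfc2 and Rpa2 are red in both, and Pold2 and Mcm7 show single libraries near 0 FPKM.

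The 4 genes that fell in liver had the highest FPKM of the 27 in Control. Mcm10 was at 24.1, 33.7 and 33.5 FPKM in Control, 6.94, 9.96 and 8.44 in LPS and 13.2, 4.68 and 13.9 in LPS+MIC-1, with no overlap between Control and either treated group. Its Log2FC with LPS was -1.79 ± 0.38 (limma adjusted p = 0.0109). The other MCM genes were low, from 0 in all libraries (Mcm5) to a highest value of 3.68 FPKM (Mcm7). Tyms (chr5:30384742-30400157, mm9), the source of thymidylate, was at 35.7, 70.9 and 53.9 FPKM in Control, 10.6, 22.5 and 7.64 in LPS and 7.64, 17.9 and 7.18 in LPS+MIC-1. All treated livers were below all Control livers, with a Log2FC with LPS of -2.03 ± 0.47 (adjusted p = 0.0143). Tk1 was at 16.0, 21.6 and 16.1 FPKM in Control, 0, 7.23 and 1.136 in LPS and 0.675, 2.54 and 5.28 in LPS+MIC-1, with a Log2FC with LPS of -3.30 ± 0.92 (adjusted p = 0.0262). A zero in an FPKM table can be a failed estimate, and 83 bases of Tk1's exons lie opposite those of Afmid. Pola2 was at 15.9, 21.6 and 20.5 FPKM in Control and 7.93, 12.8 and 6.44 in LPS (-1.10 ± 0.32, adjusted p = 0.0301). The calls of Pola2, Tyms and Tk1 were lost without Control library 2, LPS library 1 or LPS library 3, and those of Pola2 and Tk1 also without Control library 3. Over all fits with 1 library left out, Log2FC ran from -1.36 to -0.90 for Pola2, from -2.45 to -1.70 for Tyms and from -4.33 to -2.36 for Tk1.

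Gins1 and Uhrf1 were also lower with LPS, at 5.10, 7.22 and 6.52 FPKM in Control and 2.62, 4.40 and 2.57 in LPS for Gins1, and at 2.91, 3.10 and 2.48 and 1.03, 2.26 and 0.720 for Uhrf1. Their Log2FC of -0.90 ± 0.26 and -0.94 ± 0.33 did not pass the threshold, although the groups did not overlap. Without LPS library 2 both passed, at -1.12 and -1.28. Lig1 was at 1.62, 2.14 and 1.802 FPKM in Control and 0.885, 1.93 and 0.880 in LPS, which overlapped, with a Log2FC of -0.49 ± 0.29.

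Rpa2 and the clamp loader gene Rfc2 were higher in treated liver. Rpa2 (chr4:132324247-132334667, mm9) was at 1.46, 0.754 and 1.37 FPKM in Control, 4.27, 2.93 and 4.18 in LPS and 3.20, 3.96 and 4.23 in LPS+MIC-1. Each treated liver was above each Control liver, and the Log2FC with LPS was 1.35 ± 0.25 (limma adjusted p = 0.00625), called in each of the 9 fits that left out 1 library. Rfc2, the most abundant loader gene, was at 10.6, 10.5 and 14.2 FPKM in Control, 19.3, 19.1 and 20.3 in LPS and 20.5, 26.1 and 23.9 in LPS+MIC-1, with no overlap and a Log2FC with LPS of 0.72 ± 0.18, short of the fold threshold. Rpa1, at 4.72, 3.15 and 2.72 FPKM in Control and 7.07, 4.50 and 7.02 in LPS, overlapped between the groups. Rpa1 (0.74 ± 0.25) and Pcna (0.98 ± 0.34) had values of the same sign. Pcna was at 14.8, 8.24 and 7.75 FPKM in Control and 23.9, 12.1 and 27.3 in LPS, and these overlapped. Mcm2, Mcm6 and Chaf1b, all under 4 FPKM, were at 0.82, 0.91 and 0.90 with LPS. Like Rpa2 and Rfc2, Mcm6 was above each Control liver in each treated liver. It was at 0.871, 0.812 and 0.672 FPKM in Control, 2.07, 1.32 and 2.51 in LPS and 2.27, 1.47 and 2.21 in LPS+MIC-1. Pold2 could not be judged, since its values of 4.15, 7.82 and 0.116 FPKM in Control, 5.51, 6.56 and 5.04 in LPS and 6.47, 0.112 and 6.34 in LPS+MIC-1 held isolated near-zero libraries. Ccne1, below the filter, was at 0.106, 0.282 and 0.276 FPKM in Control and 1.66, 0.696 and 1.12 in LPS.

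**Figure D5:**
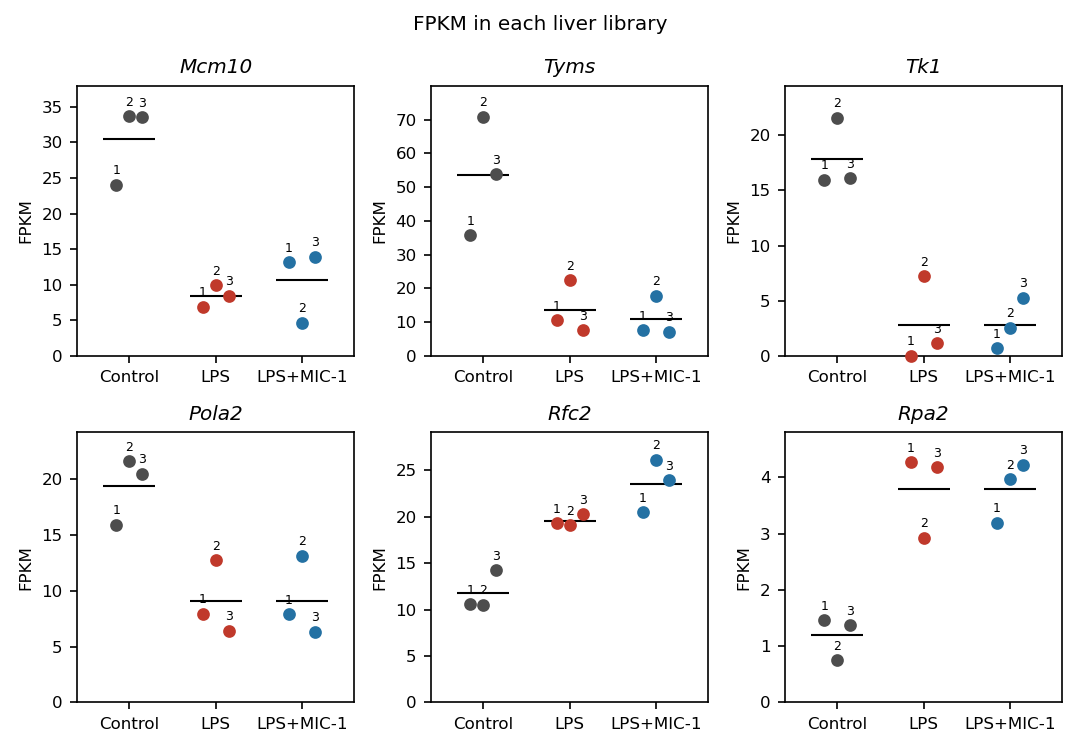
FPKM of Mcm10, Tyms, Tk1, Pola2, Rfc2 and Rpa2 in each liver library, with 1 point per library, its number within the treatment beside it and a line at the mean of the 3 libraries. Control livers lie above all treated livers for Mcm10, Tyms, Tk1 and Pola2 and below them for Rfc2 and Rpa2, while the LPS and LPS+MIC-1 livers overlap except for Rfc2.

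MIC-1 given before LPS made no difference that passed in liver. In LPS+MIC-1 against LPS, limma called 0 of the 27 genes and 0% of all genes, 1.6% of all genes being lower and 1.99% higher at an unadjusted p below 0.05. The median Log2FC was -0.10 (all genes: -0.01), and values ran from -1.0 (Pold2) to 0.57 (Tk1) with 19 lower and 8 higher. With limma array weights 0 of the 27 were called as well (2.71% of all genes called lower and 3.51% higher). Rescaled to the same FPKM sum, 26 of the 27 were lower, with the median of all genes at -0.26. Against Control, LPS+MIC-1 liver had 6 genes lower, Mcm10 (-1.60 ± 0.38), Gins1 (-1.13 ± 0.26), Pola2 (-1.09 ± 0.32), Tyms (-2.31 ± 0.47), Tk1 (-2.73 ± 0.92) and Uhrf1 (-1.33 ± 0.33), against 11.5% of all genes, and 1 higher, Rpa2 (1.36 ± 0.25), against 13.8%. The groups did not overlap for 7 lower and 6 higher genes (24.1% and 30.5% of all genes). LPS and LPS+MIC-1 were compared with the same Control livers, so these calls are not a second measurement of those with LPS alone. The number called was 3 without Control library 2 and 4 without LPS+MIC-1 library 3, and the call of Tk1 was lost without 7 of the 9 libraries, each of the Control and LPS+MIC-1 libraries among them.

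Markers of other cell types moved in the same livers. Of 8 neutrophil genes in the table, 7 were higher in every LPS liver than in every Control liver, and their summed FPKM went from 2.81 to 10.9 in Control to 339 to 440.2 in LPS and 185 to 449 in LPS+MIC-1. The 6 macrophage genes of the list summed to between 30.7 and 46.2 FPKM in Control, 132 and 627 in LPS and 130 and 439 in LPS+MIC-1, and the 6 hepatocyte genes to at least 50285 in Control and at most 55738 in LPS. The 5 erythroid genes summed to between 168 and 343 FPKM in Control, 132 and 175 in LPS and 115 and 148 in LPS+MIC-1, with Klf1 at 3.74, 3.05 and 2.11 FPKM in Control. The 6 genes of T and B cells summed to between 5.12 and 6.25, 1.16 and 4.01, and 1.90 and 3.02 FPKM in the same order. The 5 endothelial genes summed to between 19.1 and 21.3, 32.4 and 43.9, and 27.8 and 41.9 FPKM, and the 4 cholangiocyte genes to between 9.63 and 11.6, 16.7 and 30.8, and 21.2 and 27.6 FPKM. Single genes of these lists did not all move alike. In every LPS liver against every Control liver, 2 endothelial genes were higher and 1 lower, and 1 cholangiocyte gene was higher and 1 lower. Of the macrophage genes 3 were higher and 0 lower, and of the T and B cell genes 0 and 2. Of the erythroid genes 0 were higher and 0 lower, of the hepatocyte genes 0 and 1, and of the Kupffer cell genes 1 and 2. The sums of the hepatocyte, erythroid, Kupffer cell, and stellate and fibroblast lists overlapped between LPS and Control. The part of these markers in the results was not tested. In macrophages the 8 neutrophil genes summed to between 2.24 and 4.36 FPKM in Control, 4.62 and 40.2 in LPS and 654 and 721 in LPS+MIC-1, with 2 genes above Control in every LPS library and 1 below. Most of the sum was S100a8, at 1.46, 2.40 and 1.54 FPKM in Control, 29.7, 3.56 and 39.2 in LPS and 651, 676 and 718 in LPS+MIC-1. Camp was at 0, 0.104 and 0.0995 FPKM in Control, 0.495, 0.208 and 0.623 in LPS and 0.924, 0.924 and 0.957 in LPS+MIC-1, below 1 FPKM in every library with the groups in the same order as for S100a8. Csf3r was at 0.688, 1.74 and 0.818 FPKM in Control, 0.0962, 0.606 and 0.271 in LPS and 1.75, 0.266 and 0.967 in LPS+MIC-1, and Mpo, Elane, Ngp, Retnlg and S100a9 stayed below 0.5 FPKM. The part of these genes in the results was not tested. Of the other pathway genes in liver, Cdkn1a rose from 6.85, 11.8 and 4.10 FPKM in Control to 177, 85.5 and 160.2 in LPS and 113, 109 and 110.1 in LPS+MIC-1 (Log2FC with LPS 4.18 ± 0.38, limma adjusted p = 0.000501). Of the 48 tested in the 7 lists outside mitosis, 2 fell (Cdk6 and Top1) and 6 rose (Cdkn1a, Cdk4, Tk2, Samhd1, Pole4 and Rnaseh2b). Of all genes tested in liver, 11.2% fell and 13.4% rose with LPS, so neither share of the 48 was above that of all genes. Of 3 tested mitosis genes 2 fell, Ube2c (-1.24) and Birc5 (-1.22).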

How the data were processed

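RNA-seq libraries were pseudoaligned by the authors with kallisto 0.45.0 to RefSeq transcripts (mm9), summed per gene, and deposited as FPKM computed with DESeq2 1.20.0, 1 table per tissue, normalized separately. The deposited mean normalized count of each gene, a signal over all libraries of its result file, was used only to show depth. The fold changes and p-values in the authors' result files were not used. Reads per library are not given in the sources used here, so the depth behind single FPKM values is unknown.

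FPKM were tested as log2(FPKM + 0.5), so that Log2FC understates the change of low genes. A mean FPKM above 1 across a table's 9 libraries was required, and the genes left were fitted with limma 3.58.1 (R 4.3.3), all 3 treatments in 1 fit, with trended moderation and Benjamini-Hochberg adjustment over all genes of a comparison; all p-values are two-sided. Genes were called at an adjusted p below 0.01 (macrophages) or 0.05 (liver) and an absolute Log2FC above 1. The macrophage threshold follows the study, which gives its liver threshold as a p-value without naming an adjustment. Columns carry no replicate number, so libraries are numbered by their place in the table. The 9 liver libraries came from 9 mice. The labels do not say that macrophage libraries came from separate cultures, so their p-values measure the spread between these libraries, which may be technical. The fit was tested on simulated data. Promoter motifs were searched in RefSeq windows, and gene positions are from GENCODE on mm9.

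The 41 genes and all lists were chosen with earlier results of these data known. Values in the Control and LPS libraries are given for the gene of each role with the highest mean FPKM. They are also given for the gene of each role with the largest absolute Log2FC with LPS and for genes called in liver. Genes moving against the median by more than 0.5 were included as well. Values in LPS+MIC-1 are given for only part of these genes. Mcm6 in liver is given outside this rule. Tk1, Cdc6, Mcm3, Mcm7 and Pola2 in macrophages, and Rb1, Cdkn1a, S100a8, Camp, Csf3r and Klf1, were added after their values were seen. Alternatives were other pseudocounts, filters and thresholds, rescaled FPKM, array weights, fewer groups, averaged libraries and each library left out; rescaling with LPS library 2 left out was added after seeing the data.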

Additional observations from a re-analysis of the deposited data

Results flagged for a closer look

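For 9 genes, with LPS or with LPS+MIC-1 against Control, every macrophage library of that treated group lay below every Control library while every liver library of the same treated group lay above every Control liver. Mcm6 and Rpa2 did so with both. The tables were normalized separately and the difference between the tissues was not tested. Both comparisons of a tissue share its Control libraries.

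With LPS this held for 5 of the 27 genes tested in both tissues (18.5%), against 3.79% of all 8172 genes tested in both. The opposite pattern held for 0 of the 27 and 2.44% of all. Gins3, the only gene higher without overlap in macrophages, was not tested in liver, so the opposite pattern could not occur among the 27. The share of the 27 also depends on how many were lower in macrophages, so it partly restates that result. Log2FC over all 9 libraries was -1.94 in macrophages and 0.82 in liver for Mcm2, -2.0 and 0.91 for Mcm6, -0.81 and 0.28 for Rfc3, -2.63 and 0.73 for Rrm2, and -1.90 and 1.35 for Rpa2. The macrophage side includes LPS library 2, which for Mcm2 lay just under the lowest Control library (54.7 against 54.8 FPKM). Of these values, the liver value of Rpa2 passed the threshold.

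With LPS+MIC-1 against Control it held for 6 of the 27 (22.2%), against 12% of all genes, and the opposite pattern for 0 and 6.77%. Every tested gene was lower without overlap in macrophages, so for the 27 the liver side alone set these counts. In liver, 30.5% of all genes were higher without overlap, a larger share than the 22.2%. Log2FC was -2.50 in macrophages and 0.94 in liver for Mcm6, -1.21 and 0.88 for Pcna, -1.48 and 0.97 for Rfc2, -1.20 and 0.34 for Chaf1b, -1.26 and 0.74 for Rpa1, and -2.05 and 1.36 for Rpa2. In liver Rpa2 passed the threshold, and in macrophages Rfc2 and Rpa1 did so over all 9 libraries and all 6 without LPS library 2. With LPS+MIC-1 against LPS, Rfc2 was below every LPS library in macrophages (Log2FC -0.80 over all 9) and above every LPS library in liver (0.25), as were 1.73% of all genes, and neither value passed the threshold. With groups of 3, single libraries were not tested as outliers.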

How the results depend on the processing

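No paired analysis was possible because the columns carry no replicate numbers. In macrophages LPS library 2 decided most calls. For LPS against Control, the number of genes called ran from 0 (without Control replicate 1) to 37 (without LPS replicate 2) when 1 library was left out, was 36 with limma array weights, and 39 with FPKM rescaled to the same sum and LPS library 2 left out, where the median Log2FC was -3.15. That rescaling moved the median of all genes to -0.93. Relative to all genes the median of the 40 was -2.22 rescaled and -2.20 as deposited, both without LPS library 2. For LPS+MIC-1 against LPS it ran from 0 to 7 with 1 library left out, and was 2 at a mean FPKM above 5, 2 at an adjusted p below 0.05, 6 with array weights, 0 with only the groups compared, 0 with libraries 1 and 3 averaged, and 23 (median 1.05) with the rescaling without LPS library 2. For LPS+MIC-1 against Control it ran from 0 (without Control replicate 1) to 37 (without LPS replicate 2), and was 1 with rescaled FPKM, 37 with array weights, 37 with only the groups compared, 0 with libraries 1 and 3 averaged, 38 with the rescaling without LPS library 2 and 23 at an adjusted p below 0.05. Averaging libraries 1 and 3 leaves fewer samples.

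With MIC-1 against LPS, leaving out 1 library turned the sign of Cdc6 (-0.052 to 1.91), Mcm2 (-0.10 to 1.22), Mcm3 (-0.17 to 1.57), Mcm7 (-0.49 to 1.27) and Mcm10 (-0.83 to 1.27), each highest without LPS replicate 2. Mcm7 was at -0.36 with libraries 1 and 3 averaged. Mcm10 was at 0.10 with a pseudocount of 0.1, 0.25 rescaled, 0.93 with array weights and 1.78 rescaled without LPS library 2; the cause was not tested.

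In liver, the number called with LPS ran from 2 (without Control replicate 2) to 11 (without LPS replicate 2), and was 8 with a pseudocount of 0.1, 12 with array weights, 11 with no minimum fold and 1 at an adjusted p below 0.01. The median was -0.41 at a mean FPKM above 5 (all genes: 0.22), -0.015 rescaled (all genes: -0.18), and 0.10 to 0.41 with 1 library left out. For LPS+MIC-1 against LPS the medians were 0.0010 (all genes: 0.043), -0.36 (all genes: -0.26), and -0.16 to -0.064. For LPS+MIC-1 against Control they were -0.48 (all genes: 0.26), -0.42 (all genes: -0.43), and -0.035 to 0.26. In that comparison 4 were called at a mean FPKM above 5, 2 at an adjusted p below 0.01 and 3 to 7 with 1 library left out. Pold2 ran from -0.012 (LPS) and -1.02 (LPS+MIC-1), both without Control replicate 3, to 1.87 and 1.26, and was at -0.33 rescaled with LPS+MIC-1. Of the other values of single genes, 1100 kept their side of the threshold, 68 lost a call and 138 gained one. In liver 14 of the 41 genes were below the FPKM filter and not tested.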
